A study of Mus musculus with 30 samples.

Results

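The immediate-early genes of the mouse liver were followed through an ageing time course and through a hepatocyte knockout of Egr-1. The set was chosen by name and held 10 genes, Fos, Fosb, Jun, Junb, Atf3, Ier2, Ier3, Btg2, Dusp1 and Myc, each found by its symbol in the time course table of 54429 genes and by its Ensembl identifier in the genotype table of 55471 genes. The time course held 18 libraries of bulk liver RNA from male C57BL/6J mice aged 2, 6 and 12 months, taken at zeitgeber time (ZT, hours after lights on) 1, 5, 9, 13, 17 and 21, with 1 library for each age and time. The genotype experiment held 12 libraries, 6 from mice labelled Egr1_KO, in which Cre under the albumin promoter removed floxed Egr-1 from hepatocytes, and 6 from wild type (WT) littermates. At 2, 6 and 12 months there was 1 library of each genotype at a time labelled highest (H) and 1 at a time labelled lowest (L), named for the level of Egr-1 protein. By the study's methods H was ZT13, ZT9 and ZT5 at 2, 6 and 12 months, and L was ZT17, ZT21 and ZT21. Age and clock time therefore cannot be told apart when 6 or 12 months are compared with 2 months in the genotype experiment. Only L at 6 and 12 months shared a clock time. The study describes several mice per group for these transcriptomes but does not say whether a library held 1 animal or a pool, and p-values measure the spread between these libraries.

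Immediate-early genes are switched on within minutes of a growth factor, stress or feeding signal, before any new protein has to be made, because the factors that bind their promoters, such as SRF, ELK and CREB, are already present and need only be activated by kinases. Their mRNAs are short-lived, so a pulse rises and decays quickly. In the liver the group is best known from regeneration after hepatectomy, where Fos, Jun and Myc mark the first step by which resting hepatocytes enter the cell cycle, and the same genes answer to handling, hypoxia, inflammation and refeeding. Egr1, the gene removed in the knockout, is itself an immediate-early gene.

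By role, Fos, Fosb, Jun, Junb and Atf3 encode basic leucine zipper proteins of the AP-1 and ATF family, which bind DNA as dimers. Myc encodes a helix-loop-helix leucine zipper factor of growth and proliferation. Btg2 is an antiproliferative factor of the BTG and Tob family that recruits mRNA deadenylases, Dusp1 is the phosphatase that inactivates MAP kinases and so closes the loop on its own induction, Ier3 is a stress-induced survival factor, and Ier2 is a nuclear protein whose function is less well understood.

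RefSeq promoter windows (build GRCm38.p6) were at hand for 8 of the 10 genes, Ier2 and Myc being the exceptions. The 250 bases before the start were searched on both strands for the motifs through which these genes are classically driven. The cAMP response element TGACGTCA was present in 1.55% of all 32851 windows and in those of Btg2 and Dusp1. Its core TGACGT, which lies within the full element, was present in 6.47% of all windows and in those of Fos, Atf3, Btg2 and Dusp1. The Egr site GCGNGGGCG, the motif of the protein removed in the knockout, was present in 4.70% of all windows and in those of Fosb and Btg2. These 2 windows were 68.8% and 73.2% GC, against a median of 52.4% over all windows. The share among windows of like GC was not computed. The E-box CACGTG was found in 6.02% of all windows and in that of Dusp1, the TATA box TATAAA in 12.4% and in that of Fos. The AP-1 site TGANTCA (6.75% of all windows) and the CArG box that SRF binds (1.47%) were in none of the 8 windows. Bases further upstream and variants of these letters were not searched, so a gene without a match here may hold such a site. These are matches of letters and not sites shown to be bound. The windows of Fos (chr12:85473640-85473889, plus strand), Fosb (chr7:19310046-19310295, minus strand), Btg2 (chr1:134079156-134079405, minus strand) and Dusp1 (chr17:26508473-26508722, minus strand) are shown because each holds a match other than the core alone, and that of Junb (chr8:84978749-84978998, minus strand) because Junb was the member with the clearest daily pattern and holds none of them. Each reads 5′ to 3′ along the gene's strand, ends at the base before the start, and has the matched letters in capitals.
Fos: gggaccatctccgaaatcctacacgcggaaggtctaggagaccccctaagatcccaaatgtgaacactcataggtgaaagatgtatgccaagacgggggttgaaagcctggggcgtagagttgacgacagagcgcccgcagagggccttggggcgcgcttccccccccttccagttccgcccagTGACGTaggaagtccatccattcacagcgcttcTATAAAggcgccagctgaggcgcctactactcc
Fosb: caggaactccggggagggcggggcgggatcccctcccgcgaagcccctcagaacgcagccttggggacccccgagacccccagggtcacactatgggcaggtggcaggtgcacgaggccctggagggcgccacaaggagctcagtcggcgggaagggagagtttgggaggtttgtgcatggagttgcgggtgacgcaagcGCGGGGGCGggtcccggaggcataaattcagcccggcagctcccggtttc
Btg2: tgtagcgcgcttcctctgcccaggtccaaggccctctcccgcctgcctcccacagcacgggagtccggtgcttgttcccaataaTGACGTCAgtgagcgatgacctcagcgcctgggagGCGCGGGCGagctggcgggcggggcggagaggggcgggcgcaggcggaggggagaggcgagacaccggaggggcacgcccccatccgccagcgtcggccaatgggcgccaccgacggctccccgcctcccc
Dusp1: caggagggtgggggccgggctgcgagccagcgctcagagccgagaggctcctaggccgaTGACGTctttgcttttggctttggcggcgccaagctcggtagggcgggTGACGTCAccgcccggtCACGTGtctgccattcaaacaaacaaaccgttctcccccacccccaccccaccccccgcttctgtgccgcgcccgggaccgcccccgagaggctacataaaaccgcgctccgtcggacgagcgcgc
Junb: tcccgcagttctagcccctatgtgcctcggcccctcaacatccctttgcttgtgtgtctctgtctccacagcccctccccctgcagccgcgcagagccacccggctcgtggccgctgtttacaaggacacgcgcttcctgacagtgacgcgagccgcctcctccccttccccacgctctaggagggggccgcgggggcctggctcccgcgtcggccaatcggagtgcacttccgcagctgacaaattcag
In Fos the core began 66 bases and the TATA box 33 bases before the start. In Btg2 the full element began 166 bases before the start and the Egr site 131, and in Dusp1 the full element began 143 bases before the start, the E-box 126 and a further core 191. In Fosb the Egr site began 50 bases before the start.

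**Figure D1:**
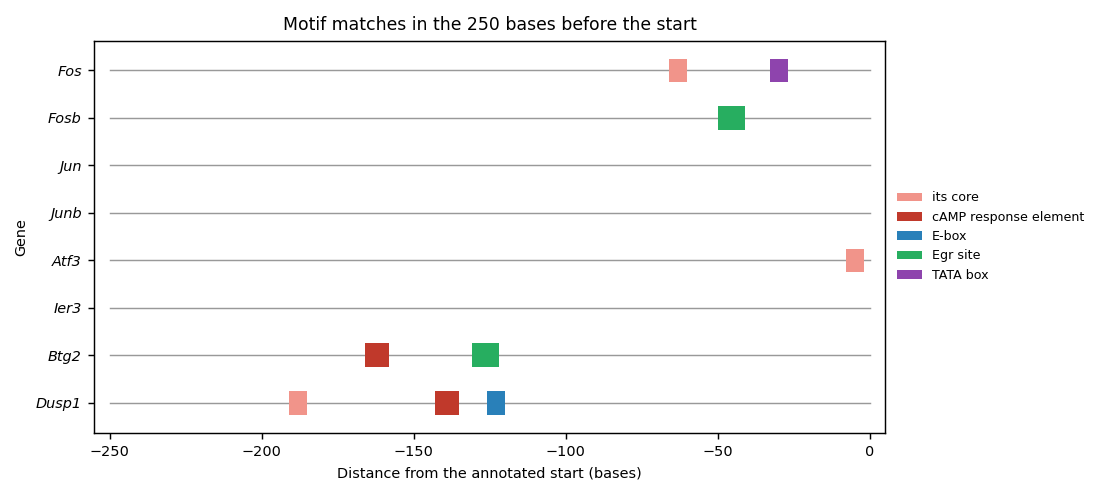
Positions of motif matches in the 250 bases before the RefSeq start of 8 immediate-early genes, with distance from the start in bases on the horizontal axis and 1 line per gene. Btg2 and Dusp1 hold the full cAMP response element, Fosb and Btg2 the Egr site, and Jun, Junb and Ier3 none of the motifs drawn.

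The libraries held 13375377 to 16557378 counts in the time course and 13747706 to 21748956 in the genotype experiment. Levels are given as counts per TMM-scaled library size (CPM), with a count of 3 as the floor, and levels of different genes are compared only as FPKM, which divides by the summed exon length. The liver markers were at high level in every library, with 47329 to 126638 CPM in the time course and 43635 to 89244 CPM in the genotype experiment summed over 5 hepatocyte genes. Because the tissue is bulk, fewer cells of a type and less RNA per cell cannot be told apart.

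The basal levels of the group spread widely. In the time course the median over 18 libraries was highest for Ier2 at 14.5 FPKM, followed by Dusp1 at 10.6, Junb at 8.04, Jun at 3.77 and Btg2 at 3.48. Ier3 at 1.16 FPKM, Myc at 1.09, Atf3 at 0.762 and Fos at 0.379 were low, and Fosb was lowest at 0.0325. The range of each gene overlapped that of its neighbour in this order, for instance 0.128 to 2.12 FPKM for Fos and 0 to 0.367 FPKM for Fosb, whereas Jun (2.24 to 7.12 FPKM) did not overlap Atf3 (0.460 to 1.33 FPKM). In the genotype experiment Dusp1 came first with a median of 19.2 FPKM and Ier2 next with 18.1, Fos (0.861 FPKM) and Fosb (0.0846 FPKM) were again the last, and Myc at 2.04 FPKM stood above Atf3 at 1.34 and Ier3 at 0.999. Fosb was counted 0 to 32 times per library in the time course, so most of its values there lie near or under the floor, which 3 counts put at 0.168 to 0.241 CPM.

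Most members varied more between libraries than genes of like level. On the log2(CPM + 0.5) scale Junb had an SD of 0.99 over the 18 time course libraries, which exceeded that of 99.1% of the 2419 genes within 1.5-fold of its mean level. The same share was 97.0% for Fos, 96.5% for Btg2, 94.6% for Myc, 92.9% for Dusp1 and 91.0% for Ier3, and 45.7% for Atf3, which varied no more than the middle of its peers. Over the 12 libraries of the genotype experiment Myc (SD 1.18, above 99.7% of its peers), Btg2 (1.06, 99.4%) and Junb (0.74, 98.5%) led, Atf3 reached 96.4%, and Ier3 was at 33.0%. These shares are a description across genes, which are not independent replicates.

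**Figure D2:**
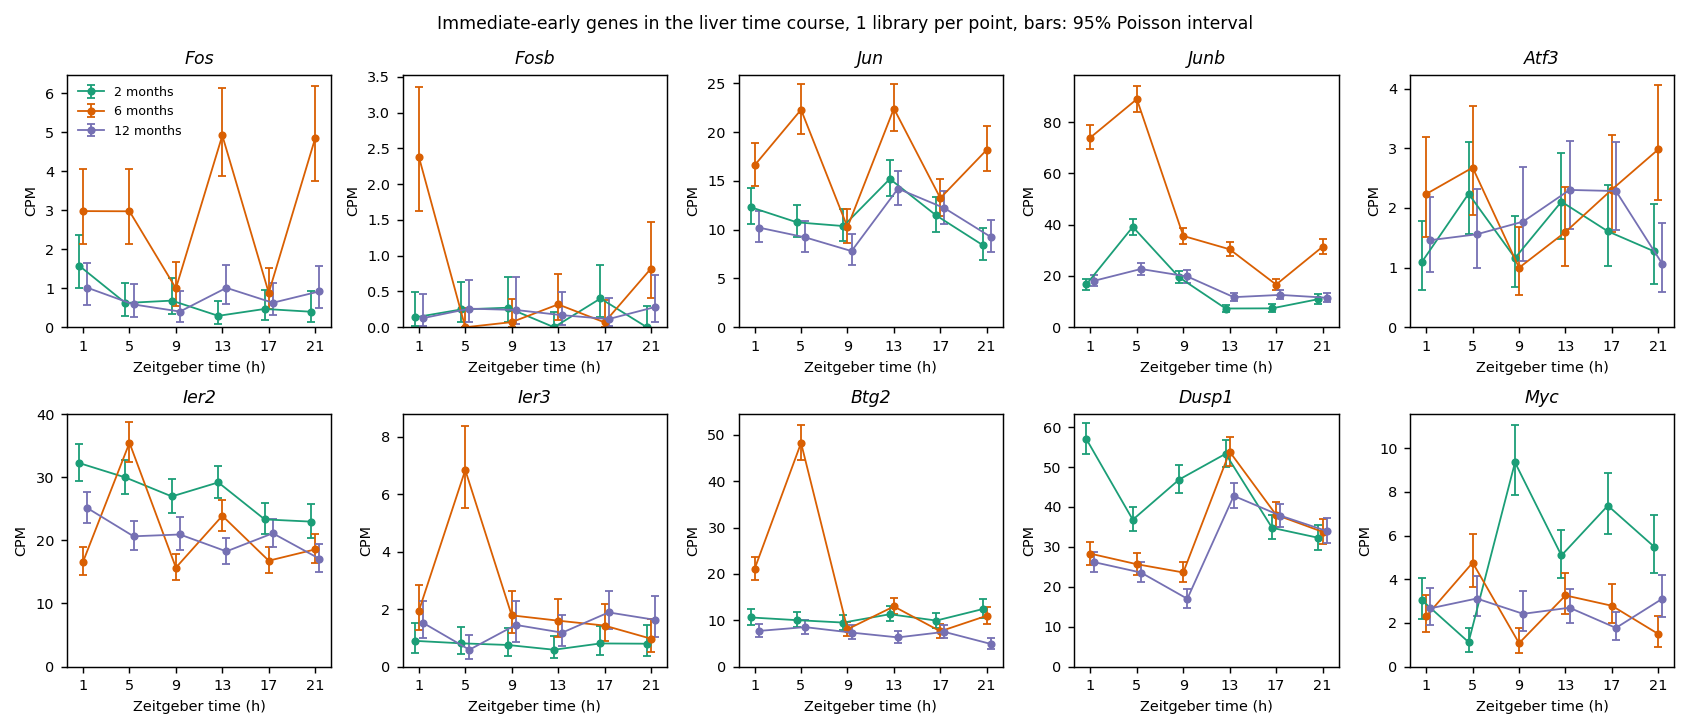
CPM of the 10 genes against zeitgeber time in hours at 2 (green), 6 (orange) and 12 months (violet), 1 library per point, with 95% Poisson intervals as bars and every vertical axis starting at 0. Junb peaks at ZT5 at each age and is highest at 6 months, and Btg2 and Ier3 stand out at 6 months ZT5.

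At 6 months the AP-1 genes Fos, Junb and Jun and the survival factor Ier3 were higher than at 2 months. These 4 rose, no member fell, and the median log2 change of the 9 members that passed the count filter was 0.52, against 0.01 over all 13948 genes tested (edgeR quasi-likelihood test with ZT as a block, Benjamini-Hochberg adjusted p under 0.05). All 4 calls were increases, where 6.83% of all genes were called higher and 13.6% were called in either direction. Without the filter on low counts 8 members were called, with Btg2 also higher and Ier2, Dusp1 and Myc lower (8.53% of 25804 genes were called). Fosb did not pass the filter in this comparison.

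Fos, the partner that turns Jun dimers into strong AP-1, ranged from 0.292 CPM at ZT13 over a median of 0.545 to 1.58 at ZT1 at 2 months, and from 0.883 at ZT17 over a median of 2.98 to 4.92 at ZT13 at 6 months. The older mice were higher at 6 of 6 ZTs, with a log2 fold change of 2.01 ± 0.39 (SE, adjusted p = 0.00302, edgeR). The groups overlapped only through the 6-month libraries at ZT9 and ZT17, which held 14 and 13 counts.

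Junb ranged from 7.31 CPM at ZT13 over a median of 13.8 to 39.2 at ZT5 at 2 months, and from 16.6 at ZT17 over a median of 33.5 to 89.0 at ZT5 at 6 months. It was higher at 6 of 6 ZTs, by 1.49 ± 0.20 on the log2 scale (adjusted p = 0.000139, edgeR), and even the lowest 6-month value lay above the 2-month median.

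Jun, the common partner of AP-1 dimers, had 8.42 to 15.2 CPM at 2 months (median 11.1) and 10.3 to 22.4 CPM at 6 months (median 17.4). It was higher at 5 of 6 ZTs, by a log2 fold change of 0.57 ± 0.14 (adjusted p = 0.0125, edgeR), the smallest of the 4 changes, and ZT9 was the exception. Without ZT21 the change was 0.46 and no longer passed the threshold.

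Ier3 had 0.585 to 0.894 CPM at 2 months and 0.969 to 6.84 CPM at 6 months (medians 0.799 and 1.69), so that every 6-month library lay above every 2-month library. Its log2 fold change was 1.499 ± 0.41 (adjusted p = 0.0237, edgeR). The highest value belonged to ZT5, 3.53-fold above the next. Without ZT5 the change was 1.01 and still passed, and without ZT1, ZT9 or ZT13 it was 1.58, 1.55 and 1.51 and did not, with 10 to 13 counts per library at 2 months behind it.

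The other members were not called. Btg2 and Atf3 had log2 changes of 0.52 ± 0.28 and 0.43 ± 0.26 (adjusted p = 0.249 and 0.316, edgeR), Ier2 and Dusp1 of -0.40 ± 0.14 and -0.41 ± 0.17 (adjusted p = 0.0775 and 0.118), and Myc of -0.97 ± 0.42 (adjusted p = 0.145). Ier2 was lower at 5 of 6 ZTs and Myc at 5 of 6, the exception being ZT5 for both. The genes of the group thus did not move as a block, with Fos, Jun, Junb and Ier3 on the higher side and Ier2, Dusp1 and Myc on the lower side without passing the test.

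**Figure D3:**
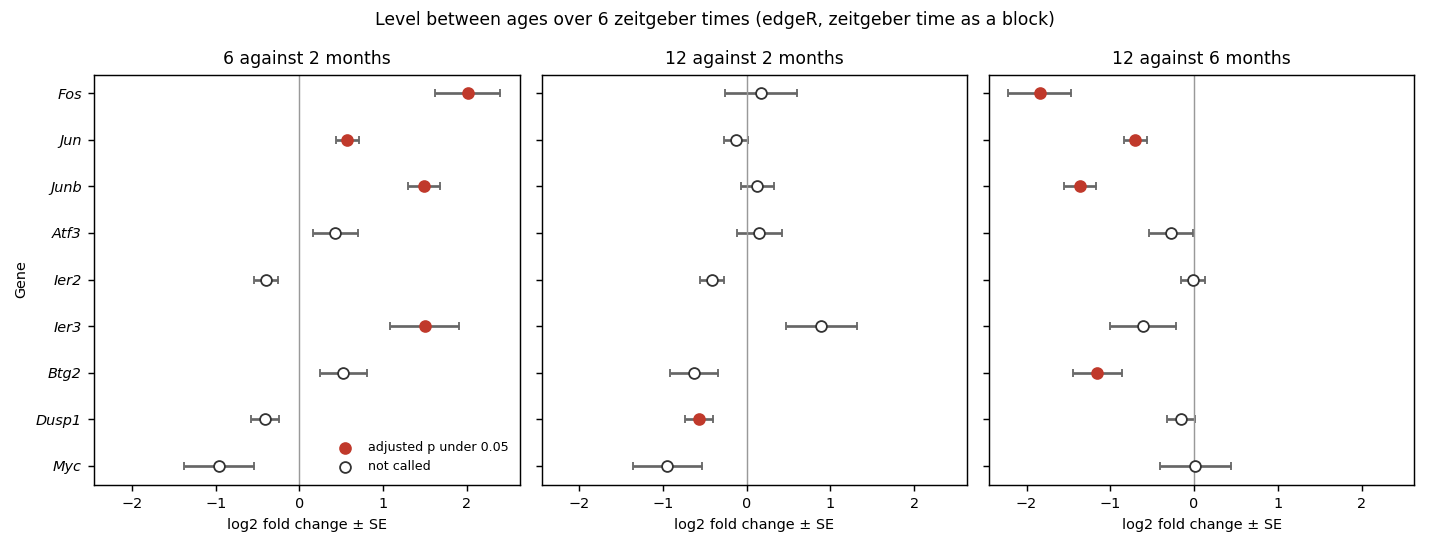
Log2 fold change between ages for the 9 members that passed the count filter, with standard errors as bars, red points for adjusted p under 0.05 and open points for the rest. Fos, Jun, Junb and Ier3 are red and to the right of 0 at 6 against 2 months, Dusp1 is the red point at 12 against 2 months, and Fos, Jun, Junb and Btg2 are red and to the left of 0 at 12 against 6 months.

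At 12 months Fos, Jun and Junb had medians of 0.773, 9.74 and 15.4 CPM, against 0.545, 11.1 and 13.8 CPM at 2 months. The ranges of Fos and Junb were narrower than at 2 months, where they were 0.292 to 1.58 and 7.31 to 39.2 CPM. Compared with 6 months, Junb, Jun, Fos and Btg2 fell and none rose, 4 of the 9 members tested, where 16.1% of all genes were called and 7.58% were called lower. Junb, at 11.5 to 22.7 CPM, had a log2 fold change of -1.36 ± 0.20 (adjusted p = 0.000265, edgeR). Fos fell by 1.84 ± 0.38 (adjusted p = 0.00355), to 0.402 to 1.02 CPM. Jun fell by 0.70 ± 0.14 (adjusted p = 0.00306), to 7.81 to 14.2 CPM. Btg2 fell by 1.15 ± 0.29 (adjusted p = 0.0128), from 7.61 to 48.3 CPM (median 12.0) to 4.87 to 8.504 CPM (median 7.40). Each of these 4 was lower at 6 of 6 ZTs, and the call for Btg2 was lost without ZT1 (log2 change -1.08), the ZT at which the 6-month library had its second highest value, 21.1 CPM. Ier3, which had been called at 6 months, was -0.61 ± 0.39 (adjusted p = 0.314). This comparison and the one of 6 with 2 months share the 6-month libraries, so that the same high values enter both.

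Between 12 and 2 months only Dusp1 was called among the 9 members tested, where 11.7% of all genes were, so that 1 of 9 is near the background. Without the filter on low counts 4 were called, Btg2, Ier2, Myc and Dusp1, all lower (7.7% of all genes). The MAP kinase phosphatase had 32.3 to 57.02 CPM at 2 months (median 41.8) and 16.98 to 42.8 CPM at 12 months (median 30.1), a log2 fold change of -0.57 ± 0.17 (adjusted p = 0.0368, edgeR). It was lower at 4 of 6 ZTs, at ZT1, ZT5, ZT9 and ZT13, and the values at ZT17 and ZT21 were slightly above those at 2 months. The call was lost without any of those 4 ZTs (log2 change -0.40 to -0.63), with library totals in place of TMM (adjusted p = 0.0748) and without the block on ZT (adjusted p = 0.161). Ier2 (-0.41 ± 0.14, adjusted p = 0.0731) and Btg2 (-0.63 ± 0.29, adjusted p = 0.175) were lower at 6 of 6 ZTs without passing, and Fos, Jun and Junb had changes of 0.17, -0.13 and 0.13 (adjusted p = 0.844, 0.605 and 0.736).

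Markers of other cells moved with age as well. Summed over 5 neutrophil genes, the level was 2.08 to 5.597 CPM at 2 months, 21.5 to 140 CPM at 6 months and 4.10 to 11.05 CPM at 12 months, without overlap between 6 months and the other ages, and 140 CPM belonged to 6 months ZT5. S100a8 and S100a9 carried most of it, whereas Ly6g, the defining marker, was at 0 in 5 of 6 libraries at 2 months, in 1 of 6 at 6 months and in 6 of 6 at 12 months, with a median of 0.298 CPM at 6 months. The sum of 5 cholangiocyte genes, of which Spp1 was the highest, was 29.5 to 47.6 CPM at 2, 37.5 to 144 at 6 and 16.4 to 28.2 CPM at 12 months, while that of the 5 hepatocyte genes was 83539 to 97838, 47329 to 100265 and 89883 to 126638 CPM. Ranges at 2, 6 and 12 months were 353 to 407, 358 to 566 and 294 to 438 CPM for Kupffer cells, 141 to 191, 177 to 283 and 128 to 202 CPM for endothelium, 297 to 353, 275 to 359 and 380 to 530 CPM for stellate cells, 4.56 to 8.08, 3.43 to 7.54 and 4.97 to 12.8 CPM for lymphocytes and 1127 to 2010, 1625 to 4558 and 1009 to 4911 CPM for erythroid cells. Of the 9 heat shock genes, a sign of stress or handling, 3 rose at 6 against 2 months (Hspb1, Hsp90aa1 and Hspa1b), 5 fell at 12 against 6 months and 1, Hspb1, rose at 12 against 2 months. The part of these cells and of stress in the changes of the members was not tested.

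The wider immediate-early group moved with the members in part. Of 26 other immediate-early genes, 21 passed the filter, 8 rose at 6 against 2 months and none fell, with a median log2 change of 0.39, where 6.83% of all genes were called higher. Socs3, the feedback inhibitor of cytokine signalling, had the largest change of those named, 2.61 ± 0.41 (adjusted p = 0.000624, edgeR), from 2.20 to 7.85 CPM at 2 months to 9.51 to 95.8 CPM at 6 months, the top again at ZT5. Gadd45b changed by 1.64 ± 0.36, Fosl2 by 1.06 ± 0.15, Klf6 by 0.53 ± 0.12 and Jund by 0.39 ± 0.09 (adjusted p = 0.00725, 0.000316, 0.00933 and 0.00933). At 12 against 6 months, where 7.58% of all genes were called lower, 3 fell and none rose, Socs3 by 2.55 ± 0.40, Ier5 by 0.61 ± 0.19 and Fosl2 by 0.55 ± 0.15 (adjusted p = 0.00058, 0.033 and 0.0193). At 12 against 2 months, where 6.47% of all genes were called higher, 4 rose and none fell, Klf6 (0.52 ± 0.12), Gadd45b (1.32 ± 0.37), Fosl2 (0.52 ± 0.15) and Jund (0.30 ± 0.09), with adjusted p of 0.0125, 0.0283, 0.0392 and 0.0401, a comparison in which Fos, Jun and Junb were not called.

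Of 20 genes of the pathway upstream, all tested, none rose at 6 against 2 months and 1 fell, where 6.73% of all genes were called lower. This was the JNK gene Mapk9 (-0.28 ± 0.07, adjusted p = 0.0184, edgeR). At 12 against 6 months, where 8.57% of all genes were called higher and 7.58% lower, 2 rose, Mapk9 (0.36 ± 0.07, adjusted p = 0.00349) and Rps6ka1 (0.47 ± 0.14, adjusted p = 0.0275), and 4 fell, the SRF coactivator Mkl1 (-0.74 ± 0.16), Egfr (-0.78 ± 0.18), Rps6ka3 (-0.40 ± 0.12) and Crem (-0.41 ± 0.13), with adjusted p of 0.00469, 0.00855, 0.0387 and 0.047. Egfr was also lower at 12 against 2 months (-0.75 ± 0.18, adjusted p = 0.0144), as was the hepatocyte growth factor receptor Met (-0.35 ± 0.10, adjusted p = 0.0371), and no gene of this list rose there, where 5.18% of all genes were called lower.

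The daily pattern was examined next, since 1 library per ZT allows a rhythm to be read only from the order of 6 values. With an exact permutation test over all 720 orders against a 24-h cosine, one-sided for the best of the 6 phases, the smallest p that can be reached is 0.0333, and a gene was called at that value. Junb at 6 months was the only member called (exact permutation p = 0.0333, n = 6, best phase ZT5), and none was at 2 or 12 months, out of the 9 members with a mean of at least 1 CPM. Of 12471 genes 8.7%, 8.28% and 6.44% were called at 2, 6 and 12 months, and 1 call among 9 members is near that background.

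Junb had its highest value at ZT5 at each age. At 2 months it went from 16.7 CPM at ZT1 to 39.2 at ZT5 and 19.5 at ZT9, then to 7.31, 7.37 and 10.97 at ZT13, ZT17 and ZT21. At 6 months the values were 74.0, 89.0, 35.6, 30.4, 16.6 and 31.4 CPM in the same order, and at 12 months 18.2, 22.7, 19.8, 11.7, 12.6 and 11.5 CPM. The highest library was ZT5 and the 3 lowest were those of the dark phase in all 3 ages. The exact test gave p = 0.133 at 2 months and 0.317 at 12 months (exact permutation, n = 6 each), whereas a cosine fitted to the counts (edgeR cosinor) gave a log2 amplitude of 1.18 at 2 months with a peak at ZT 4.69 (adjusted p = 0.000718), 1.09 at 6 months with a peak at ZT 3.99 (adjusted p = 0.000891) and 0.52 at 12 months with a peak at ZT 5.32 (adjusted p = 0.15). The cosinor called 4.72%, 4.62% and 3.53% of all genes at the 3 ages. The difference of the curve between 12 and 2 months had an unadjusted p of 0.0209 and an adjusted p of 1.0 (edgeR), so that a smaller amplitude at 12 months was not shown.

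Other members had no common phase. By the cosinor Btg2 was called at 6 months only (log2 amplitude 1.08, peak ZT 4.30, adjusted p = 0.0176, edgeR), a curve that rests on 21.1 CPM at ZT1 and 48.3 CPM at ZT5 against 7.61 to 12.97 CPM at the other ZTs, whereas at 2 months Btg2 held between 9.49 and 12.4 CPM throughout the day. Ier3 at 6 months had a log2 amplitude of 1.10 and a peak at ZT 5.61, without a call (adjusted p = 0.0635, edgeR cosinor). Fosb at 6 months had an amplitude of 2.10 and a peak at ZT 23.5, also without a call (adjusted p = 0.182). Dusp1 was highest at ZT13 at 6 and 12 months, with 53.9 and 42.8 CPM, and at ZT1 at 2 months, with 57.02 CPM. Jun was highest at ZT13 at every age, with 15.2, 22.4 and 14.2 CPM at 2, 6 and 12 months. Myc at 2 months went from 1.12 CPM at ZT5 to 9.35 CPM at ZT9, neighbouring libraries, and reached 4.76 CPM at ZT5 at 6 months as its highest value there.

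No member changed its rhythm with age by the test of the difference. At 6 against 2 months 15 of 14268 genes (0.105%) were called and none of the 10 members, of which Btg2 had the smallest unadjusted p of 0.00851 (adjusted p = 0.266, edgeR). Among the other immediate-early genes Socs3 was called (adjusted p = 0.0304). At 12 against 2 months no gene was called (0.0%), with 657 at an unadjusted p under 0.05 and 14 by DESeq2. Egr1 itself reached the smallest p at 2 months (exact permutation p = 0.0333, n = 6), from 27.1 CPM at ZT1 to 1.46 at ZT13, and not at the older ages.

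Single libraries held many of the highest values. At 6 months ZT5 Junb, Ier2, Ier3 and Btg2 had their highest level of all 18 libraries, as did 12.5% of 12471 genes, and Jun and Myc were at 22.3 and 4.76 CPM. Fos and Jun were highest at 6 months ZT13 and Atf3 at 6 months ZT21. Fosb reached 2.38 CPM (32 counts) at 6 months ZT1 and 0.820 CPM (11 counts) at 6 months ZT21 against at most 0.402 CPM (6 counts) in every library of 2 and 12 months, and none of its counts was above 0 at 6 months ZT5, where 3 counts would give 0.223 CPM. Fosb was therefore highest in a library other than the one in which Btg2 and Ier3 were highest. Btg2 had its second highest 6-month value, 21.1 CPM, in that same ZT1 library. In all, 8 of the 10 members had their highest time course library at 6 months, and 2, Dusp1 and Myc, at 2 months. Of 12471 genes, 4.62%, 12.5%, 4.62%, 4.65%, 3.10% and 2.95% were highest at 6 months ZT1, ZT5, ZT9, ZT13, ZT17 and ZT21.

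The members were compared with each other as a description over libraries, whose values for different genes share the same RNA and sequencing depth. Over the 18 libraries of the time course the Pearson correlation of log2(CPM + 0.5) in the 45 pairs of members had a median of 0.24 and ran from -0.39 to 0.79, with 8 pairs above 0.5 and 14 below 0. Fos and Jun were the closest pair (r = 0.79, Spearman's rho = 0.62, and 0.61 after each age was centred on its mean), and Junb was nearest to Btg2 (0.66). Dusp1 and Myc stood apart, with a median correlation to the other members of -0.03 and -0.14. Over the 12 libraries of the genotype experiment the median was 0.44 and 20 pairs exceeded 0.5, led by Atf3 and Btg2 (r = 0.90, Spearman's rho = 0.90, 0.92 after centring), Fos and Btg2 (0.81) and Junb and Ier2 (0.81).

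Among all other genes, the 10 whose pattern was most like the mean of the members over the 18 time course libraries were Lrrc75a (r = 0.82), Mknk1 (0.81), Farp1 (0.81), Arfip2 (0.79), Srf (0.79), Gm7694 (0.79), Cd14 (0.78), Nagpa (0.78), Rps6ka3 (0.78) and Thbd (0.78), out of 12462 genes with a median of -0.0013. Srf, the gene of the serum response factor itself, also ranked 57 of 12699 in the genotype experiment (r = 0.72). Gm7694 (0.59) and Cd14 (0.52) ranked 260 and 520 in it. Mknk1 (0.0046), Farp1 (-0.11), Arfip2 (-0.20), Nagpa (-0.013), Rps6ka3 (0.16) and Thbd (0.16) ranked between 3733 and 9888. Lrrc75a was not ranked in the genotype experiment. There the 10 nearest were Nedd9 (0.90), Fosl2 (0.90), Fbxo28 (0.88), Slc35b3 (0.88), Fst (0.86), Zbtb10 (0.85), Ntm (0.84), Tiparp (0.84), Rbfox2 (0.84) and Tgds (0.83). No gene was in both lists of 10. Over the other immediate-early genes the median correlation was 0.42 in the time course (21 genes) and 0.48 in the genotype experiment (19 genes), and over the 9 heat shock genes it was 0.15 and 0.05.

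The genotype experiment asked what loss of Egr-1 in hepatocytes does to the liver transcriptome. Egr1 checks the labels first. The WT libraries had 2.55 and 1.45 CPM at 2 months H and L, 72.1 and 25.0 at 6 months and 5.86 and 55.3 at 12 months, and those labelled KO had 1.97, 7.37, 5.50, 4.96, 6.11 and 1.54 CPM in the same order. In the pairs at 2 months L and 12 months H the library labelled KO was not lower, and over the 6 pairs the log2 change of Egr1 was -1.76 ± 0.79 (adjusted p = 0.324, edgeR). Every direction below is therefore between labels, and other liver cells keep the gene in this model.

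No member was called between the libraries labelled KO and WT over the 6 pairs, where 1.36% of 14843 genes were called (edgeR with the pair as a block). At an unadjusted p under 0.05 no member passed either, and DESeq2 called none. The median log2 change of the 10 members was 0.06, against -0.01 over all genes. Btg2 had the largest change, 0.64 ± 0.59 (adjusted p = 0.661), and was higher in the library labelled KO in 5 of 6 pairs. Fos followed with 0.48 ± 0.40, Ier3 with -0.34 ± 0.29 and Dusp1 with -0.31 ± 0.18 (adjusted p = 0.622, 0.637 and 0.462), and the rest lay between -0.21 and 0.25.

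**Figure D4:**
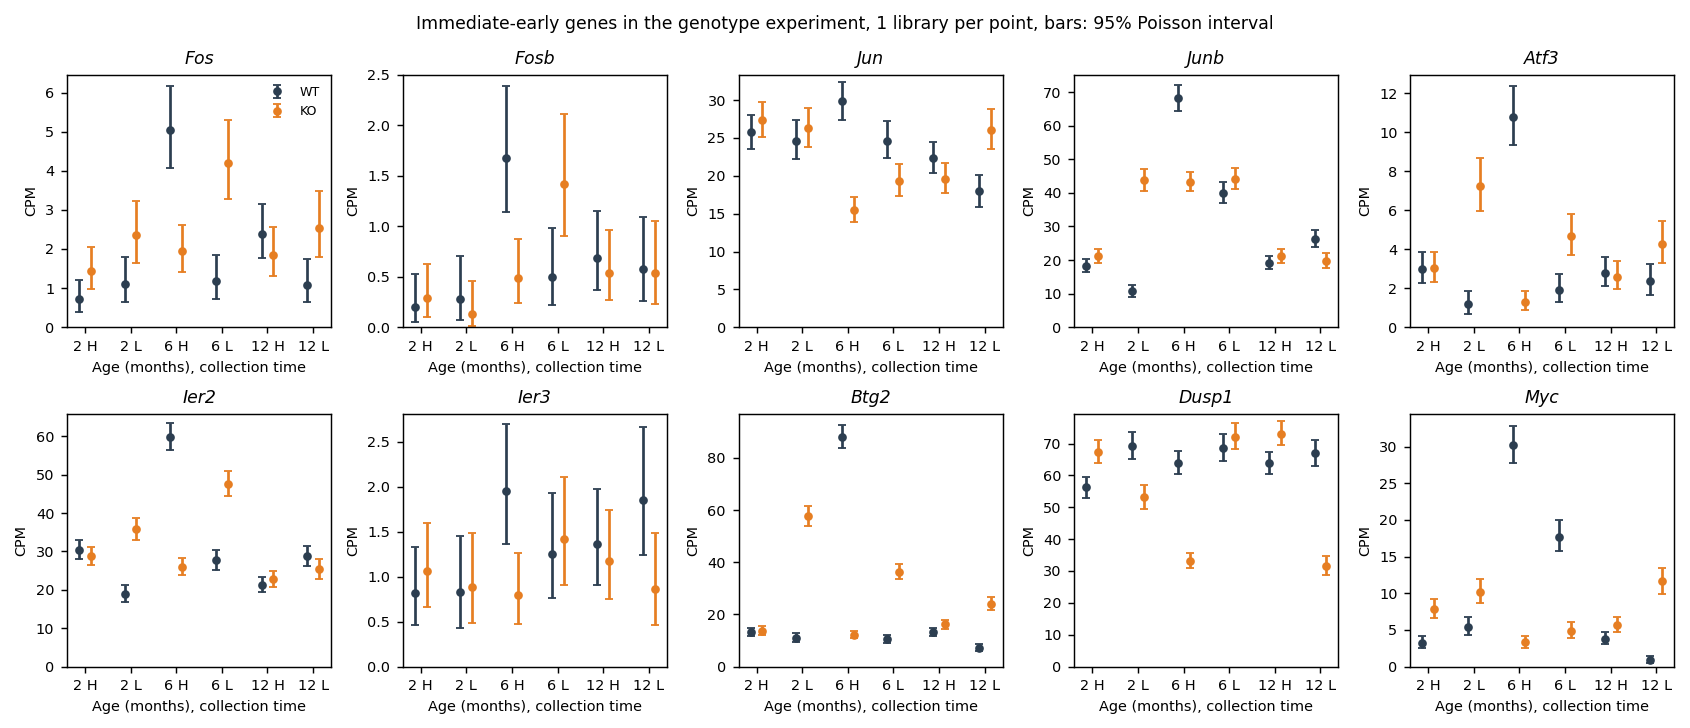
CPM of the 10 genes in the 12 libraries of the genotype experiment by age and collection time (H or L), WT in dark blue and the library labelled KO in orange, 1 library per point, with 95% Poisson intervals as bars and axes from 0. The WT library at 6 months H is the highest for every gene but Dusp1.

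The 6 pairs differed in direction. At 6 months H all 10 members were lower in the library labelled KO, where 49.0% of 14818 genes were higher. The median log2 ratio was -1.33 against -0.01 over all genes. Counting intervals left out 0 for 10 of 10 members, a share that was not computed over all genes. They lay above and below 0 for 6 and 1 members at 2 months L, 5 and 2 at 6 months L and 5 and 3 at 12 months L. At 2 months H and 12 months H these counts were 4 and 0, and 3 and 0. At 6 months H Myc had 3.28 against 30.2 CPM, Atf3 1.29 against 10.8, Btg2 12.3 against 88.2, Ier2 26.0 against 59.9 and Fos 1.95 against 5.04 CPM. The WT library was the one that stood apart, since it held the highest level of 9 members among the 12 libraries, as it did for 11.7% of 12708 genes.

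At 2 months L 8 of 10 members were higher in the library labelled KO, as were 52.3% of all genes. The median log2 ratio of the members was 0.92, against 0.02 over all genes. Btg2 had 57.6 against 11.1 CPM, Atf3 7.24 against 1.18, Junb 43.8 against 10.7 and Ier2 35.8 against 19.0 CPM. This is a pair in which Egr1 was itself higher in the library labelled KO.

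The KO-labelled library of 6 months L was higher for 8 of 10 members (median 0.48) and for 50.3% of all genes. Btg2 had 36.2 against 10.4 and Fos 4.19 against 1.19 CPM, while Myc had 4.84 against 17.7 CPM. At 12 months L the members split 5 to 5, where 50.9% of all genes were higher in the library labelled KO. Myc was at 11.6 against 0.897 CPM, Btg2 at 24.1 against 7.11 and Dusp1 at 31.6 against 66.9 CPM. At 2 months H and 12 months H the median log2 ratios were 0.23 and -0.0029, and Myc (1.29) and Fos (1.01) at 2 months H were the largest ratios in size of these 2 pairs. Each pair is 1 library against 1, so that these intervals cover counting error only.

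**Figure D5:**
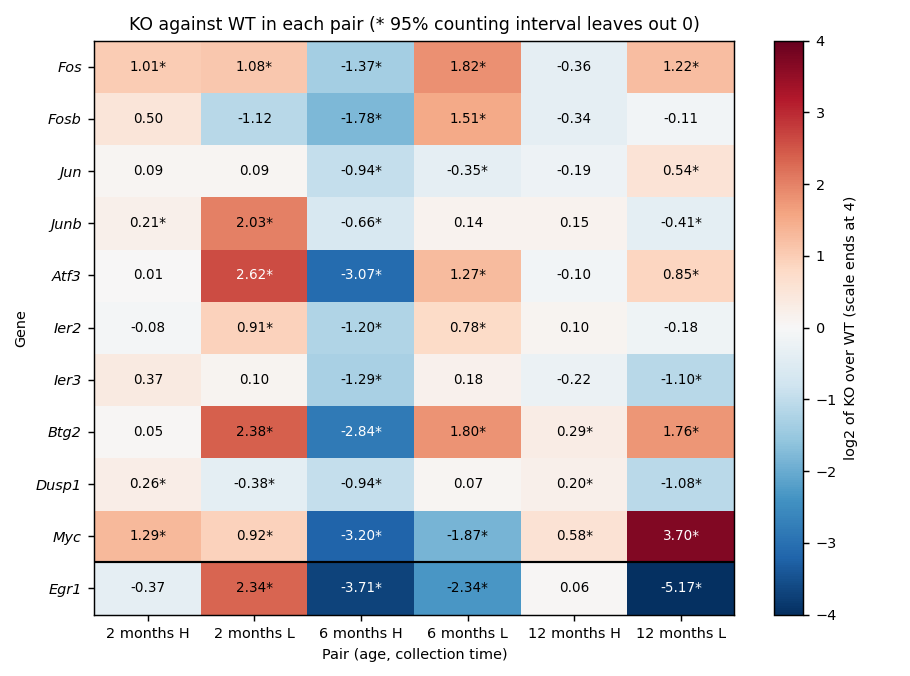
Log2 ratio of the library labelled KO over WT in each of the 6 pairs for the 10 members and Egr1 (last row), red for higher and blue for lower in KO, with an asterisk where the 95% counting interval leaves out 0. The column of 6 months H is blue throughout, and Btg2 is red in the 3 columns labelled L.

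Btg2 had the same direction in all 3 pairs at L, at 57.6, 36.2 and 24.1 CPM in the KO-labelled libraries of 2, 6 and 12 months against 11.1, 10.4 and 7.11 CPM in WT, without overlap. In a fit of these 3 pairs alone its log2 change was 1.98 (adjusted p = 0.00293, edgeR) and it was the 1 member called of 9 tested, where 0.384% of all genes were called. These pairs include 2 months L, where Egr1 was at 7.37 CPM in the KO-labelled library against 1.45 CPM in WT. Fos (1.08, 1.82 and 1.22) and Atf3 (2.62, 1.27 and 0.85) also had positive log2 ratios in all 3, without a call (adjusted p = 0.189 and 0.155). In the 3 pairs at H alone Btg2 was at -0.86 (adjusted p = 0.609).

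Whether the genotype difference itself changed between H and L was tested as an interaction. No member was called, and 0.00674% of all genes were, a single gene. The smallest unadjusted p belonged to Btg2 (-2.81 ± 0.72, unadjusted p = 0.0031, adjusted p = 0.687, edgeR), Atf3 (-2.56 ± 0.80, adjusted p = 0.855), Fos (-1.77 ± 0.59, adjusted p = 0.911) and Ier2 (-0.91 ± 0.37, adjusted p = 0.977), all toward a lower ratio at H. Fosb (-1.14 ± 0.90) and Myc (-1.03 ± 1.43) had larger standard errors (adjusted p = 1.0 for both), and the median over the 10 members was -0.97 against -0.01 over all genes. Without the pair at 6 months H the value for Btg2 was -1.82 (adjusted p = 0.0676). Without the filter on low counts Btg2, Atf3 and Ier2 were called (adjusted p = 3.49e-07, 0.000808 and 0.0447, edgeR). The share of all genes called in that fit was not computed, so the absence of calls depends on the filter. The interaction with age called 0.0135% of all genes and none of the members. Myc, whose log2 ratios were 1.29 and 0.92 at 2 months, -3.20 and -1.87 at 6 months and 0.58 and 3.70 at 12 months, had the smallest unadjusted p of 0.00135 (adjusted p = 1.0, edgeR). An alternative chosen after the data were seen kept only the 4 pairs in which Egr1 was lower in the library labelled KO. Among them, 2 months H had a counting interval for Egr1 that held 0. The fit holds 1 pair each at 2 and 12 months with 1 residual degree of freedom, so its call for Myc is not relied on.

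H and L stood for different clock times at each age, so that their contrast over all ages tests the label and not a time of day. No gene was called between H and L (0.0%, edgeR), with 3 genes at an unadjusted p under 0.05 and none by DESeq2, and the log2 differences of the members lay between -0.10 (Btg2) and 0.15 (Fosb). So few genes pass the unadjusted threshold that this fit says nothing about whether H and L differed within an age.

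The age comparison was repeated in this experiment, over genotype and collection time. At 6 against 2 months no member was called, where 1.76% of all genes were. Fosb, Junb and Fos had positive values, with Fosb at 2.03 ± 0.52 (adjusted p = 0.0836, edgeR), Junb at 1.14 ± 0.33 (adjusted p = 0.112) and Fos at 1.04 ± 0.38 (adjusted p = 0.193), each higher in 4 of 4 pairs of libraries, while Jun was at -0.25 ± 0.17 (adjusted p = 0.537). Junb had 40.01 to 68.2 CPM in the 4 libraries of 6 months and 10.7 to 43.8 CPM in those of 2 months, which overlapped through the KO-labelled library of 2 months L. Without the KO-labelled libraries at L of all ages Junb was at 1.59 and called. DESeq2 called Fosb, which had 0.488 to 1.68 CPM at 6 months and 0.127 to 0.289 CPM (2 to 6 counts) at 2 months. At 12 against 2 months 10.4% of all genes were called and no member, with Fosb at 1.33 ± 0.54 (adjusted p = 0.156). Of the other immediate-early genes 2 of 21 fell there, Ppp1r15a (-0.50 ± 0.13) and Csrnp1 (-1.04 ± 0.26, adjusted p = 0.0314 for both), and of 18 upstream genes Mapk9 rose (0.35 ± 0.08, adjusted p = 0.0212) and Egfr and Map2k2 fell (-1.26 ± 0.30 and -0.36 ± 0.09, adjusted p = 0.0268 and 0.0323).

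Markers of other cells were recorded beside these pairs. The 5 neutrophil genes summed to 24.4 CPM in the WT library at 6 months H and 30.8 CPM in the KO-labelled library of 2 months L, against 0.770 to 12.5 CPM in the other 10. Among these 10 was the KO-labelled library of 6 months L with 2.18 CPM, in which 8 of 10 members lay above their median over the 12 libraries, as 9 did in the WT library at 6 months H and 7 in the KO-labelled library of 2 months L. Ly6g was at 0 in 6 of 6 WT and 4 of 6 KO libraries. The hepatocyte sum was 43635 to 56180 CPM in the libraries labelled KO and 72362 to 89244 CPM in WT, mostly through Alb, with medians of 32946 and 58419 CPM. The sums in KO and WT were 294 to 431 and 269 to 351 CPM for Kupffer cells, 111 to 162 and 118 to 171 CPM for endothelium, 289 to 431 and 258 to 414 CPM for stellate cells, 18.1 to 40.9 and 21.2 to 46.4 CPM for cholangiocytes, 4.55 to 15.1 and 3.87 to 14.9 CPM for lymphocytes and 800 to 1849 and 798 to 1970 CPM for erythroid cells. None of the 9 heat shock genes was called between the genotypes, and 4 fell at 12 against 2 months. The part of these in the members' values was not tested.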

How the data were processed

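Liver poly(A) RNA was sequenced as paired-end libraries. Per the submitters' processing notes the authors trimmed reads with fastp, aligned them with HISAT2 to mm10 and counted them per gene with featureCounts; versions are not given in the sources used here. The deposited values are raw integer counts per gene in 2 tables, 18 libraries by symbol and 12 by Ensembl identifier, with no column left out.

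Counts were tested with edgeR 4.0.16 (quasi-likelihood, TMM, filterByExpr, Benjamini-Hochberg over all genes, called under 0.05), with ZT, pair, or genotype and time as a block, and each table was tested on its own. For rhythm, all orders of the 6 values were enumerated against 24-h cosines as in JTK_cycle, on genes of at least 1 CPM. DESeq2 1.42.0 and the other settings tried are described in the closing section. The fits were tested on simulated data. Intervals are 95% exact Poisson or binomial intervals and cover counting error only. Lengths are summed GENCODE M21 exons (GRCm38).

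The members, gene lists and tests were chosen with earlier results of these data known. By rule the text names all 10 members, Egr1, up to 5 called genes per direction of the lists of other immediate-early genes and upstream signalling, and the 10 genes most like the members in each table. Other list genes were named after their values were seen.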

Additional observations from a re-analysis of the deposited data

Results flagged for a closer look

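In each of the 5 groups of 6 libraries the highest and the lowest value of each member were set against the others by Dixon's ratio. Of 50 such groups 9 held a value set apart, all of them highs. The nominal rate of about 1 in 20 groups is for 6 values drawn from 1 normal distribution. These groups mix ZTs, or ages and collection times, on the CPM scale and share libraries, so 9 of 50 cannot be set against it.

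In the wild type library at 6 months H, Btg2 had 88.2 CPM against 13.2 in the next library of its group, Ier2 59.9 against 30.4, Atf3 10.8 against 3.01 and Fosb 1.68 against 0.683 CPM. In the time course library at 6 months ZT5, Btg2 had 48.3 CPM against 21.1 and Ier3 6.84 against 1.94 CPM. Fosb stood apart at 6 months ZT1 with 2.38 CPM against 0.820, and in the KO-labelled library of 6 months L with 1.42 CPM against 0.538. Fos stood apart at 2 months ZT1 with 1.58 CPM against 0.683, which is 23 counts against 10.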

How the results depend on the processing

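The number of members called was recomputed under every alternative, and 105 of 127 such counts stayed within 1.5 times the value reported. A reported count of 0 stayed only in the sense that no member was called again. It was 0 for both changes of rhythm, KO against WT, both interactions, H against L and the age comparisons of the genotype experiment. Without a filter on low counts 8 members were called at 6 against 2 months and 4 at 12 against 2 months, where 8.53% and 7.7% of all genes were. In the genotype experiment it gave 3 in the interaction of genotype with H or L (Btg2, Atf3 and Ier2). It gave 2 in that with age and 1 at 6 against 2 months. For these fits of the genotype experiment the share over all genes was not computed, so their counts cannot be set against a background. The cause was not tested. At 12 against 2 months no member (0) was called with library totals in place of TMM or without the replicate block on ZT. Leaving out 1 ZT at a time gave 0 to 3 members there and 0 to 1 for the change of rhythm between 6 and 2 months, and leaving out 1 block gave 0 to 1 at 6 against 2 months of the genotype experiment. In that comparison 1 member was called by DESeq2 and 1 without the replicate block, Fosb in both. For KO against WT the 3 pairs at L alone gave 1, Btg2, and for genotype by age the 4 pairs in which Egr1 was lower in the library labelled KO gave 1, Myc, an alternative chosen after the data were seen. The replicate block changed no other count. The cosinor gave 1 rhythmic member at 2 months and 2 at 6 months, and an exact p under 0.15 gave 2, 2 and 1 at 2, 6 and 12 months. Of 832 log2 changes of single members under an alternative, 89 had the opposite sign to the reported one, and none of these was called before or after. For KO against WT the sign turned with the 3 pairs at H alone for Fos (-0.40), Junb (-0.12), Atf3 (-1.04), Ier2 (-0.41), Btg2 (-0.86) and Myc (-0.50), with the 3 pairs at L alone for Jun (0.084), with the 4 pairs for Junb (-0.18), Atf3 (-0.21), Ier2 (-0.17) and Myc (-0.37) and with no replicate block for Ier2 (-0.0063) and Myc (-0.50). For 12 against 2 months of the time course the sign turned with no replicate block for Junb (-0.067). For 12 against 6 months the sign turned with library totals for Ier2 (0.053) and with no filter for Myc (-0.0050). For 12 against 2 months of the genotype experiment the sign turned with library totals for Junb (0.061) and Dusp1 (0.00058) and with DESeq2 for Junb (0.0050). For H against L the sign turned with no replicate block for Jun (0.014), Atf3 (0.10), Ier2 (0.034), Btg2 (0.092) and Myc (0.084), with library totals for Jun (0.0024), with no filter for Jun (0.0094) and Ier2 (0.0053), with DESeq2 size factors for Jun (0.0067) and Ier2 (0.0029) and with DESeq2 for Jun (0.0068) and Ier2 (0.0033). Other signs turned when 1 ZT or 1 block was left out at a time. For KO against WT these were Fosb from -0.63 to 0.23, Jun from -0.25 to 0.042, Junb from -0.11 to 0.40, Atf3 from -0.18 to 0.87, Ier2 from -0.12 to 0.31 and Myc from -0.48 to 0.76. For 12 against 2 months of the time course these were Fos from -0.088 to 0.45 and Junb from -0.011 to 0.33. For 12 against 6 months these were Ier2 from -0.12 to 0.16 and Myc from -0.16 to 0.22. For 12 against 2 months of the genotype experiment these were Junb from -0.40 to 0.45, Atf3 from -0.41 to 0.17 and Dusp1 from -0.17 to 0.093. For 6 against 2 months there these were Atf3 from -0.48 to 0.66, Btg2 from -0.34 to 1.03 and Dusp1 from -0.25 to 0.22. For H against L these were Fos from -0.38 to 0.31, Fosb from -0.23 to 0.59, Jun from -0.064 to 0.085, Junb from -0.15 to 0.23, Atf3 from -0.52 to 0.35, Ier2 from -0.23 to 0.18, Ier3 from -0.14 to 0.17, Btg2 from -0.66 to 0.35, Dusp1 from -0.24 to 0.21 and Myc from -0.36 to 0.14. For the interaction of genotype with H or L these were Ier3 from -0.52 to 0.33 and Myc from -2.45 to 0.31. Depth limits Fosb, Ier3, Fos, Atf3 and Myc, which had under 50 counts in most time course libraries.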
